A study of Mus musculus with 3 samples.

Results

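The genes described here are 10 imprinted genes known for roles in growth, Mest, Peg3, H19, Meg3, Grb10, Cdkn1c, Plagl1, Ndn, Sgce and Nnat. They were chosen by name, as the probes that carry 1 of these gene names and are not controls. No cut on measured values was used, but earlier results of these data were known when the genes were chosen. They are 10 of 37324 genes read on the arrays, and 25 of the 56605 probes that are not controls belong to them. Their RNA was measured on 1-colour Agilent microarrays, with 1 array for each of 3 fractions of epididymal fat from mice. The fractions were stromal vascular cells (SVC), small proliferative adipocytes (SPA) and mature white adipocytes (MWA, called MA in the sample records). The study compared SVC with SPA and SPA with MWA to describe SPA, and every value below is from 1 array a group, so no difference has a replicate check and no test was run.

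All 3 groups were cells of epididymal fat, digested with collagenase, from male C57/BL mice of 20 weeks, and the number of mice behind each array is not given in the sources used here. A first spin at 9 g for 1 s left SVC in the lower phase. The floating cells were spun at 226 g for 3 min, which separated the floating MWA from the SPA in the sediment. The sediment and the SVC were then grown in DMEM to 90% confluency. Since no such step is given for MWA, culture cannot be told apart from cell type in any comparison with MWA. The sample titles give SVC and SPA the same date and MWA a later one, without saying what the date marks, so it cannot be told apart from cell type either. All arrays shared 1 slide and 1 scan. In RNA from a bulk fraction, fewer cells of a type and less RNA per cell cannot be told apart.

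Imprinted genes are transcribed mainly from the copy inherited from 1 parent, which is set by DNA methylation laid down in the germ line and kept in the embryo by proteins such as ZFP57. Many of them act on growth before and after birth, and as a rule genes expressed from the paternal copy promote growth and genes expressed from the maternal copy restrain it. In adipose tissue, Mest has long been used as a marker of expanding fat cells, and Dlk1, a neighbour of Meg3, as a marker of preadipocytes. The arrays measure the RNA of a gene and cannot tell its parental copies apart.

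Each level is given as a scaled signal, the processed signal of a probe divided by the 75th percentile of its array, so a value of 1 is a probe as bright as that percentile. Each gene was read at its brightest probe, and at that probe all 10 genes were well above background on all 3 arrays. A difference is given as a fold or a log2 ratio between arrays at the same probe, and levels of different probes are not compared. Where a probe was not well above background on 1 array, the fold is a lower bound and is written "at least". A gene was called at a 5-fold difference, the rule of the study, and a 2-fold difference is given as a looser description. The only measured error is that between spots of 1 array. Probes spotted 10 times had a median SD of the log2 level of 0.22 to 0.26 below a level of -3, of 0.07 to 0.09 from there to 0, and of 0.038 to 0.045 above 0. Folds below carry this spot error as an SD in log2, which covers no difference between mice, dissections or cultures.

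The sequences upstream of the genes are shown for the 4 members that were at least 5-fold higher in MWA relative to SPA (as were 5.47% of all genes), since these share that difference. RefSeq promoter windows of 300 bases, 250 before and 50 from the transcription start, matched 7 of the 10 members in 11 windows, and H19, Cdkn1c and Sgce had none. Capitals mark TGCCGC on either strand, which reads GCGGCA on the other, the hexamer that ZFP57 binds when its CpG is methylated. The 250 bases before the start are printed, 5′ to 3′ along the gene, and for Mest the window of the second start.
Nnat (chr2:157559828-157560077, plus strand, GRCm38.p6): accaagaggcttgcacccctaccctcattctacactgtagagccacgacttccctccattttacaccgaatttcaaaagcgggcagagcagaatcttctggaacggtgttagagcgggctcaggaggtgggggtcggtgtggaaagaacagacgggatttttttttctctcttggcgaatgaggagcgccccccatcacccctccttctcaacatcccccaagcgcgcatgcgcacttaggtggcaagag
Mest (chr6:30737800-30738049, plus strand, GRCm38.p6): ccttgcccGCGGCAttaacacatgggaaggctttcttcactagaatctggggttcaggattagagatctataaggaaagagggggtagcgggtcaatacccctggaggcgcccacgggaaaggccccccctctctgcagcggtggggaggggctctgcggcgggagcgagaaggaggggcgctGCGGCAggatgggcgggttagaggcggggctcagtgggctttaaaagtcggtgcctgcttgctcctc
Plagl1 (chr10:13090582-13090831, plus strand, GRCm38.p6): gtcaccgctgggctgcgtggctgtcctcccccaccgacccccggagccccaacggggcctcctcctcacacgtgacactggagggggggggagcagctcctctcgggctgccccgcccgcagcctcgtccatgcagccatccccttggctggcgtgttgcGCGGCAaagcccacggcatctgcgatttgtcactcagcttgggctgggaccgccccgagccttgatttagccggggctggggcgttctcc
Peg3 (chr7:6730420-6730669, minus strand, GRCm38.p6): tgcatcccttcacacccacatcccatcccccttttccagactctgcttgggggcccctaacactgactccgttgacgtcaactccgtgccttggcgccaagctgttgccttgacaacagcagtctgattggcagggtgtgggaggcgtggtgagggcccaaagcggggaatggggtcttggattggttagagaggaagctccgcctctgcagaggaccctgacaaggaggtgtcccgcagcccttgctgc
These 300-base windows hold 17 CpG in Nnat, 17 in Mest, 26 in Plagl1 and 13 in Peg3, against a median of 7 over all 32851 windows. Of all windows, 31.4% reach 17 CpG, 16.9% reach 26 and 37.9% reach 13. The first Mest window, not printed, holds 8 CpG and no hexamer. The hexamer stood in 6 of the 11 member windows, of Mest, Meg3, Grb10, Plagl1 and Nnat, and in 11.6% of all windows. The 2 of Mest overlap, so they hold the same letters. In Nnat and Grb10 it does not lie within the 250 bases before the start, and in Peg3 and Ndn it was not in the window. The highest CpG count of a member was 45 in the first Grb10 window, a count that 1.93% of all windows reach. These are letters in a window and say nothing of methylation, which was not measured.

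The members did not move as 1 group. Between SVC and SPA none was called at 5-fold in either direction, against 0.320% of all genes higher and 0.351% lower in SPA. Between SPA and MWA 4 were called higher in MWA (Nnat, Mest, Plagl1 and Peg3), against 5.47% of all genes, and none lower, against 3.97%. From SVC to SPA to MWA, Nnat, Mest and Cdkn1c were higher at each step and Grb10 was lower at each step. H19 and Meg3 were lower in SPA relative to SVC and near the SPA level in MWA, Peg3 and Plagl1 were lowest in SPA and highest in MWA, Sgce was higher in MWA alone, and Ndn stayed within 1.26-fold over the 3 arrays.

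**Figure D1:**
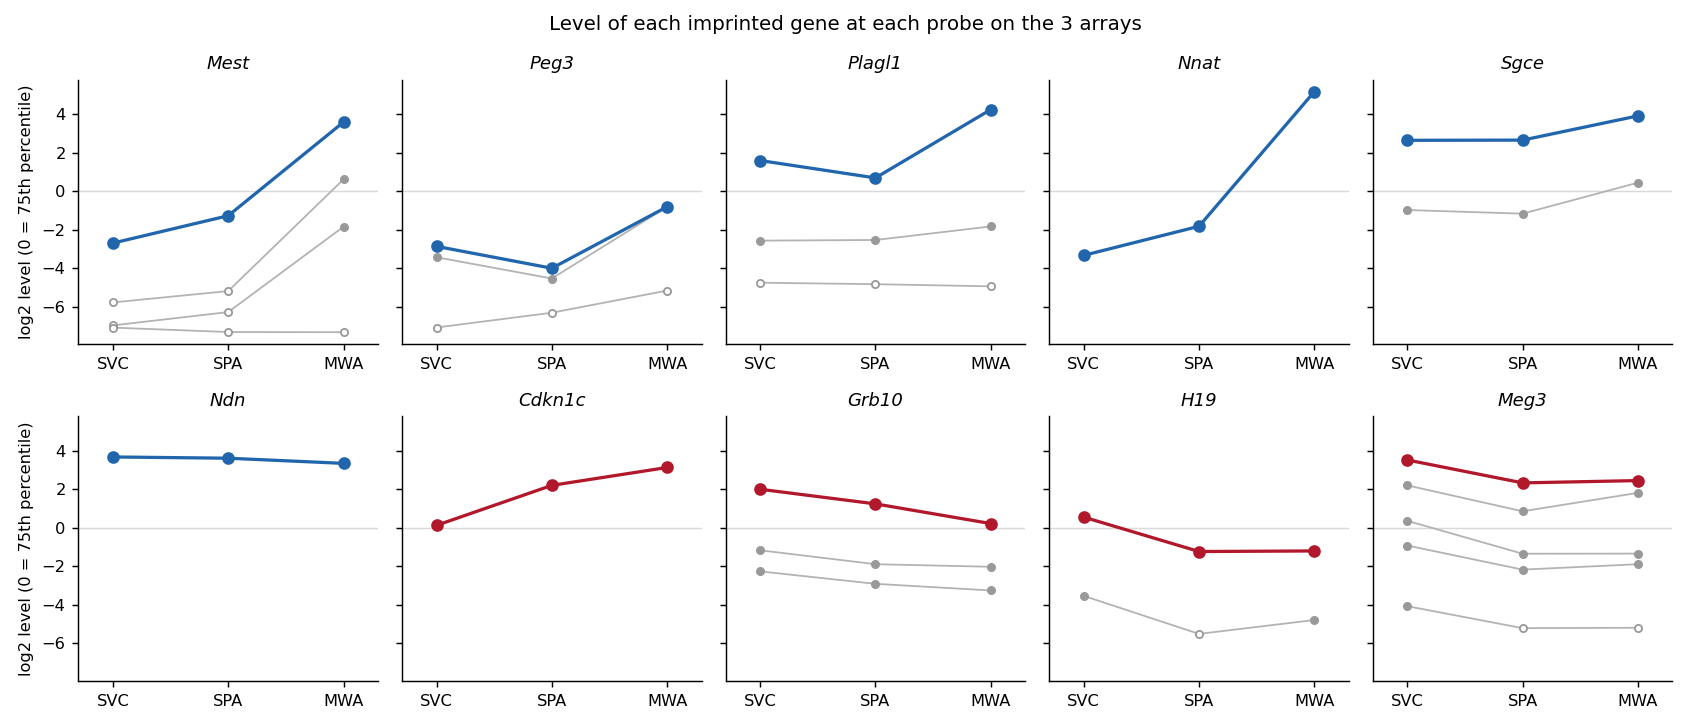
Log2 level of each gene on the SVC, SPA and MWA arrays, where 0 is the 75th percentile of the array. The coloured line is the probe at which the gene was read (blue for genes known to be expressed from the paternal copy, red for the maternal copy), grey lines are its other probes, and open points were not well above background. Nnat and Mest climb at both steps, Cdkn1c climbs most at the first, and all 5 probes of Meg3 drop from SVC to SPA.

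Nnat encodes neuronatin, a small membrane protein of the endoplasmic reticulum known for its part in brain development, insulin secretion and calcium handling. Its scaled signal was 0.0989 for SVC, 0.282 for SPA and 35.9 for MWA at its single probe (chromosome 2, 157387978 to 157388037 in mm9). Nnat moved from the dim end of the detected range to well over the 75th percentile. It was 2.85-fold higher in SPA relative to SVC (log2 ratio 1.51, spot SD 0.27) and 128-fold higher in MWA relative to SPA (log2 ratio 6.99, spot SD 0.09). Of 20777 genes measured on both arrays, 28 had a larger ratio of MWA over SPA. This was the largest difference among the members, and MWA was 363-fold higher than SVC. The paper already lists Nnat among the genes past its 5-fold rule in MWA relative to SPA. Nnat lies inside an intron of Blcap, a gene that restrains proliferation, and Blcap was 1.40-fold higher in SPA relative to SVC and 1.58-fold higher in MWA relative to SPA.

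Mest, also called Peg1, encodes a protein of the alpha/beta hydrolase fold that is found at the endoplasmic reticulum. At its brightest probe (chromosome 6, 30697385 to 30697444 in mm9) the scaled signal was 0.154 for SVC, 0.413 for SPA and 12.0 for MWA. The order of the arrays was that of Nnat. Mest was 2.68-fold higher in SPA relative to SVC (log2 ratio 1.42, spot SD 0.12) and 29.2-fold higher in MWA relative to SPA (log2 ratio 4.87, spot SD 0.09). Of the other 3 Mest probes, 1 for the same transcript was at least 53.8-fold higher in MWA relative to SPA and 1 for another transcript at least 9.76-fold, both not well above background in SVC and SPA, and the last was dim on all arrays. The difference between SVC and SPA therefore rests on 1 probe. Klf14, a transcription factor gene near Mest that is expressed from the maternal copy, had no probe well above background in SVC or SPA and was at least 14.8-fold higher in MWA relative to SPA. The neighbours Copg2 and Cpa4 were within 1.97-fold over the 3 arrays.

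Plagl1 encodes a zinc finger protein, ZAC1, that can halt the cell cycle and is a hub of the network of co-regulated imprinted genes. Its brightest probe (chromosome 10, 12850832 to 12850891 in mm9) had a scaled signal of 3.01 for SVC, 1.61 for SPA and 18.9 for MWA. SPA was the lowest array, 1.87-fold below SVC, and MWA was 11.7-fold above SPA (log2 ratio 3.55, spot SD 0.06). The probes of Plagl1 disagreed. The next probe of the same transcript (chromosome 10, 12848421 to 12848480 in mm9) was at 0.168 for SVC, 0.172 for SPA and 0.280 for MWA, which is 1.63-fold from SPA to MWA, and the last was not well above background on any array. With the median of its probes Plagl1 had a log2 ratio of 2.13 at this step and was not called.

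Peg3 encodes a large zinc finger protein that binds DNA and has been tied to stem cells of several tissues. At its brightest probe (chromosome 7, 6657078 to 6657137 in mm9) the scaled signal was 0.137 for SVC, 0.0622 for SPA and 0.570 for MWA. The shape was that of Plagl1, with the lowest value in SPA. Peg3 was 2.20-fold lower in SPA relative to SVC (log2 ratio -1.14, spot SD 0.24) and 9.17-fold higher in MWA relative to SPA (log2 ratio 3.20, spot SD 0.23). Under a normexp background correction the 2 log2 ratios were -0.41 and 1.78, and the second was short of the 5-fold rule. That correction adds an offset of 50 to every signal, which by itself shrinks the ratios of dim probes. A further probe gave 2.15-fold and 13.2-fold for the same steps, and the last was not well above background on any array. Usp29, which starts beside Peg3 in the opposite direction, was detected at a single probe. It did not share the drop there, with 0.0790 for SVC, 0.0788 for SPA and 0.180 for MWA. In SVC and SPA that probe lay below a level of -3, where the spot SD is 0.22 to 0.26.

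Sgce encodes epsilon-sarcoglycan, a membrane protein that links to dystroglycan. Its scaled signal was 6.25 for SVC, 6.29 for SPA and 15.1 for MWA at its brightest probe (chromosome 6, 4624457 to 4624516 in mm9). SVC and SPA differed by less than the spot error (log2 ratio 0.01, spot SD 0.05), and MWA was 2.39-fold higher than SPA. Its other probe gave 3.05-fold for that step. Peg10, the retrotransposon-derived gene that starts beside Sgce, was 2.87-fold lower in SPA relative to SVC and not well above background in MWA. Its other probe had a log2 ratio of -0.26 for SPA over SVC. Of the other sarcoglycans and dystroglycan, 1 of 5 was at least 2-fold higher in MWA relative to SPA, Sgcd at 2.62-fold, and none was 2-fold lower. Over all genes these shares were 15.7% and 18.0%, so the counts do not set the family apart. The size for Sgcd depended on the probe, since its other 2 detected probes had log2 ratios of 5.12 and 5.68 at this step.

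Ndn encodes necdin, a protein of the MAGE family known to restrain the cell cycle and adipocyte differentiation. Its single probe (chromosome 7, 69494749 to 69494808 in mm9) had a scaled signal of 12.9 for SVC, 12.3 for SPA and 10.2 for MWA. Ndn was the flattest of the members over the 3 arrays, 1.05-fold lower in SPA relative to SVC and 1.20-fold lower in MWA relative to SPA. Its neighbour Magel2, another MAGE gene, was 1.05-fold and 1.32-fold lower at the same steps. Of the other genes of the locus, Ube3a was flat too at its brightest probe, at 4.39 for SVC, 4.41 for SPA and 4.29 for MWA. Atp10a was at 1.59, 1.06 and 0.932 on the same arrays. The other detected genes of the locus were not flat. Peg12 was 5.77-fold lower in MWA relative to SPA, and Snrpn, which encodes a splicing protein, was 2.10-fold higher.

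Cdkn1c encodes p57, an inhibitor of cyclin-dependent kinases. Its single probe (chromosome 7, 150644297 to 150644356 in mm9) had a scaled signal of 1.10 for SVC, 4.62 for SPA and 8.80 for MWA. Cdkn1c had the largest difference of the members between SVC and SPA, 4.22-fold higher in SPA (log2 ratio 2.08, spot SD 0.05), just short of the 5-fold rule. Of 20822 genes measured on both arrays, 68 had a larger ratio. MWA was 1.90-fold higher than SPA and 8.03-fold higher than SVC. None of the 7 detected genes of its locus was 2-fold apart between SVC and SPA, where 3.89% of all genes were higher and 3.24% lower. Kcnq1ot1, the antisense RNA of the locus, was at 5.16 for SVC, 5.28 for SPA and 7.42 for MWA. Its probes disagreed on MWA over SPA, with log2 ratios of 0.40 to 0.49 at 3 probes and of -2.13 at a further one.

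The other inhibitors of the Cdkn1 and Cdkn2 families did not share the pattern of Cdkn1c. At its brightest probe none of the 6 was 2-fold apart between SVC and SPA. Over all genes 3.89% were higher and 3.24% lower at this step, so this does not set the 6 apart from other genes. A further Cdkn1a probe had a log2 ratio of -1.28 for SPA over SVC and, as a bound, of -2.88 for MWA over SPA. Between SPA and MWA, Cdkn2c (p18) was higher in MWA with a log2 ratio of 3.46 and Cdkn1b (p27) with one of 1.13, while Cdkn2a was 18.1-fold lower and Cdkn2b 2.03-fold lower. All 8 genes of the cell cycle list, such as Mki67 and Top2a, were at least 2-fold lower in MWA relative to SPA. Their summed scaled signal was 80.4 for SVC, 64.9 for SPA and 13.4 for MWA, and its part in the Cdkn1c values was not tested.

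Grb10 encodes an adaptor that binds the insulin and IGF1 receptors and dampens their signal, and in most tissues outside the brain it is expressed from the maternal copy. At its brightest probe (chromosome 11, 11833165 to 11833224 in mm9) the scaled signal was 4.02 for SVC, 2.37 for SPA and 1.17 for MWA. Grb10 was lower at both steps, 1.69-fold at the first (log2 ratio -0.76, spot SD 0.05) and 2.03-fold at the second (log2 ratio -1.02, spot SD 0.06). Its other 2 probes were also lower at both steps, by 1.65-fold and 1.56-fold and then by 1.10-fold and 1.27-fold. The size of the second step depended on the probe, and with the median of the 3 probes it had a log2 ratio of -0.34.

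Both neighbours of Grb10 were lower at the same steps. Cobl, which encodes an actin nucleator, was 1.68-fold lower in SPA relative to SVC and 1.95-fold lower in MWA relative to SPA. Ddc, the enzyme that makes dopamine and serotonin, was 3.15-fold and then 4.72-fold lower. Among relatives and receptors, Grb14 was 2.89-fold lower in SPA relative to SVC and 17.1-fold higher in MWA relative to SPA. From SPA to MWA the receptor genes Insr and Igf1r were 2.93-fold higher and 3.70-fold lower, and the other 3 Igf1r probes had log2 ratios of -1.26, -0.81 and -0.92.

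H19 is a long noncoding RNA that hosts a microRNA and shares its control region with Igf2. At its brightest probe (chromosome 7, 149761492 to 149761551 in mm9) the scaled signal was 1.47 for SVC, 0.426 for SPA and 0.435 for MWA. H19 was high in SVC alone, 3.45-fold above SPA (log2 ratio -1.79 for SPA over SVC, spot SD 0.09), and SPA and MWA differed by less than the spot error (log2 ratio 0.03, spot SD 0.11). Its second probe was too dim for detection in SPA and was at least 3.03-fold lower in SPA relative to SVC and at least 1.27-fold higher in MWA relative to SPA. Igf2, the growth factor gene of the same locus, was dim, not well above background in SVC and 8.23-fold higher in MWA relative to SPA, with 0.0385 in SPA and 0.316 in MWA.

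Meg3 is a long noncoding RNA at the start of a large cluster of maternally expressed noncoding RNAs. At its brightest probe (chromosome 12, 110783470 to 110783529 in mm9) the scaled signal was 11.5 for SVC, 5.05 for SPA and 5.49 for MWA. As for H19, SVC was the high array, 2.28-fold above SPA (log2 ratio -1.19 for SPA over SVC, spot SD 0.05). All 5 probes were lower in SPA relative to SVC, by 2.09-fold at least and 3.27-fold at most, where the 2.09 is a bound. From SPA to MWA the 4 probes with a ratio were 1.00-fold to 1.94-fold higher, so a rise there depended on the probe.

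The genes of the Meg3 cluster were lower in SPA as well. All 4 detected neighbours of 5 were at least 2-fold lower in SPA relative to SVC, which were Dio3 at 5.40-fold, Dlk1 at 5.03-fold, Mirg at 2.62-fold and Rian at 2.05-fold. The other Dlk1 probe had a log2 ratio of -1.13, short of the 5-fold rule. Mirg and Rian are noncoding RNAs of the same copy as Meg3, whereas Dlk1, which encodes a ligand that holds back adipogenesis, and Dio3, the enzyme that inactivates thyroid hormone, are expressed mainly from the paternal copy. Dlk1 was at 0.812 for SVC, 0.161 for SPA and 0.391 for MWA, so it was lowest in SPA on these arrays. The paper also measured Dlk1 by real-time PCR and reports expression in both SVC and SPA, with no fold in its text.

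**Figure D2:**
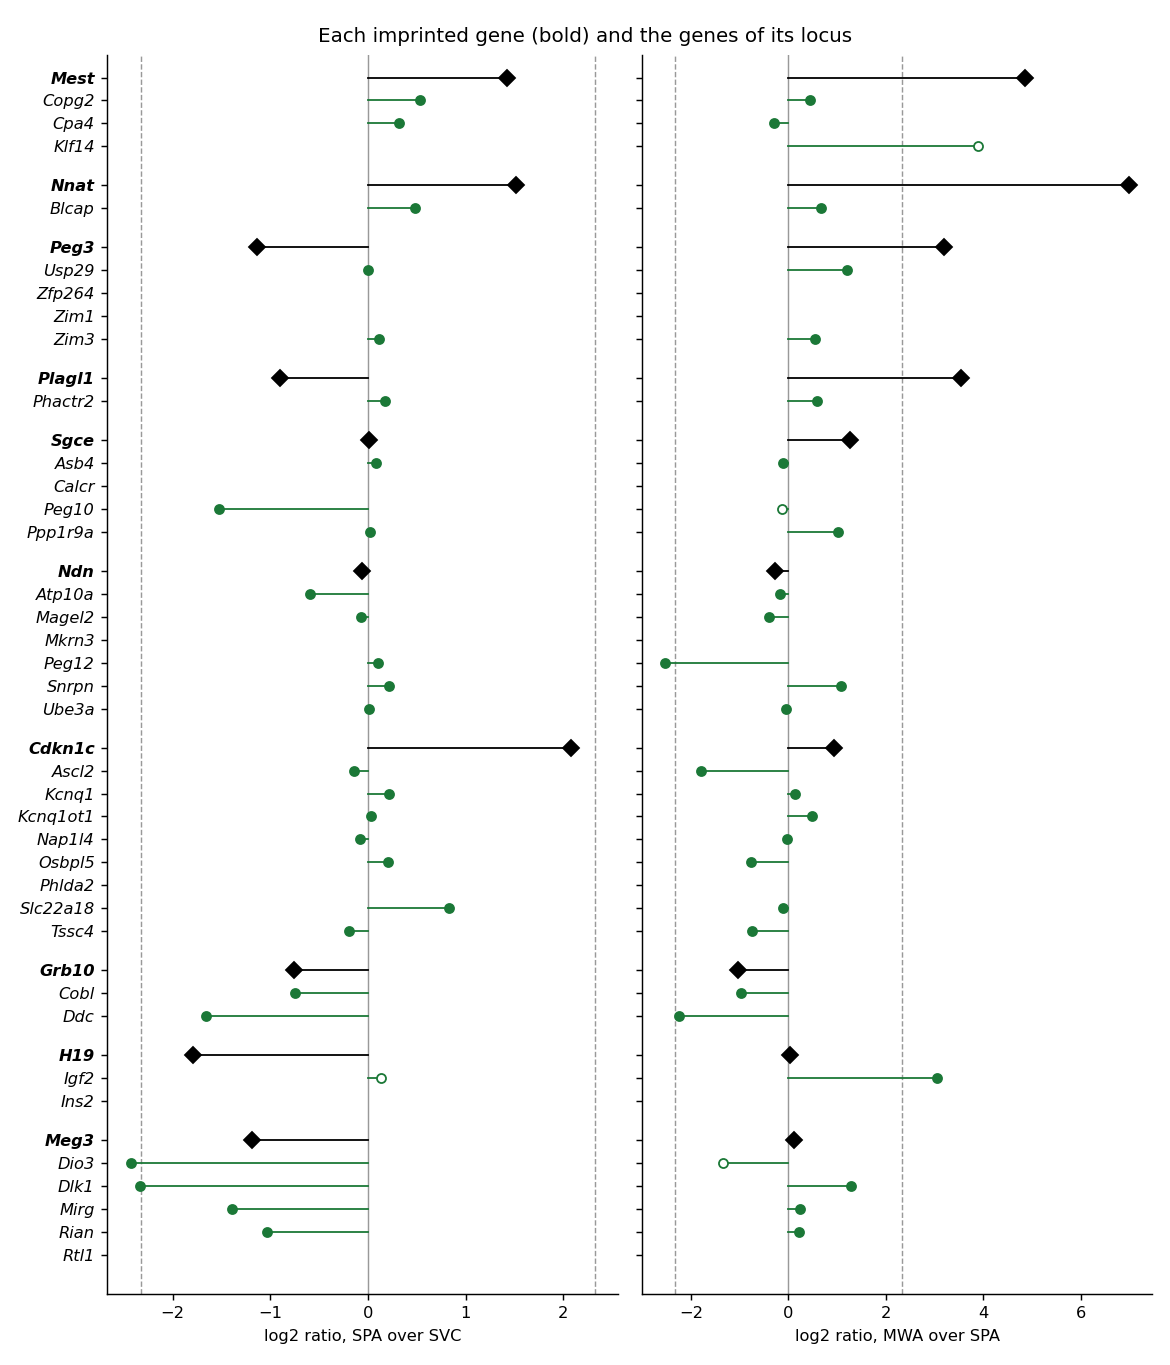
Log2 ratio of SPA over SVC (left) and MWA over SPA (right) for each of the 10 genes (bold, diamonds) and for the 36 genes of their loci on the arrays (circles). Open symbols are lower bounds of the size, a missing symbol was not well above background on either array, and dashed lines mark a 5-fold difference. In the left panel the detected neighbours of Meg3 and Grb10 lie below 0 as those genes do, whereas no neighbour of Cdkn1c, Mest or Nnat reaches a 2-fold difference.

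The 3 comparisons share arrays, so the ratio of MWA over SVC is the product of the other 2 and adds no measurement. In SPA over SVC, 0 of 10 members were called at least 5-fold higher, against 0.320% of 22808 genes, and 0 of 10 at least 5-fold lower, against 0.351%. At 2-fold, 3 members were higher (Cdkn1c, Nnat and Mest), against 3.89% of all genes, and 3 were lower (H19, Meg3 and Peg3), against 3.24%. Under a normexp background correction Cdkn1c, H19 and Meg3 remained past 2-fold here, and Nnat, Mest and Peg3 did not, with log2 ratios of 0.81, 0.94 and -0.41. That correction adds an offset of 50 to every signal, which by itself shrinks the ratios of dim probes. In MWA over SPA, 4 of 10 members were called at least 5-fold higher, against 5.47% of 24101 genes, and 0 at least 5-fold lower, against 3.97%. At 2-fold, 5 were higher with Sgce added, against 15.7%, and 1 was lower (Grb10), against 18.0%, a split that became 5 and 0 with quantile normalization and 6 and 0 with a 75th percentile over detected probes, where Cdkn1c was added.

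In MWA over SVC, 4 members were called at least 5-fold higher (Nnat, Mest, Cdkn1c and Plagl1), against 5.72% of 23596 genes, and 0 at least 5-fold lower, against 3.96%. At 2-fold, 6 were higher, with Peg3 and Sgce added, against 17.2%, and 3 were lower (Grb10, H19 and Meg3), against 18.0%. The median log2 ratio of the members was -0.41 in SPA over SVC, 1.09 in MWA over SPA and 1.66 in MWA over SVC. Over all genes measured on both arrays it was 0.05, -0.08 and -0.07. The members near the 5-fold limit were Cdkn1c at 4.22-fold below it in SPA over SVC, and Peg3 at 4.17-fold below it and Plagl1 at 6.26-fold above it in MWA over SVC. When each gene was read as the median over its probes, Peg3 passed it there (log2 ratio 2.34), Plagl1 did not (1.69), and Grb10 was short of 2-fold (-0.99).

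**Figure D3:**
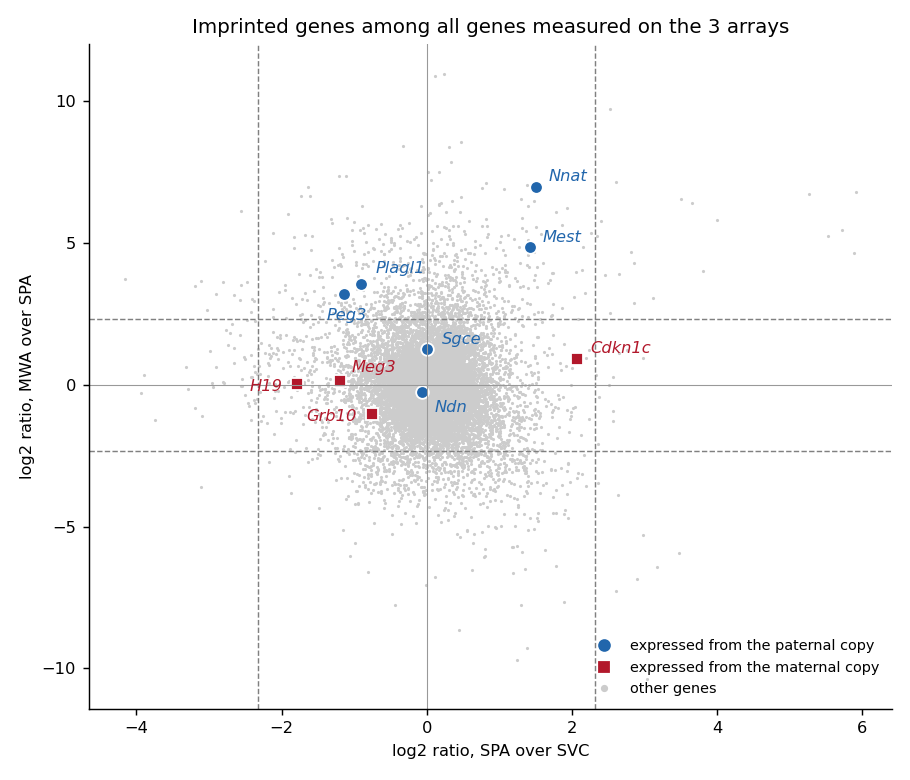
Log2 ratio of SPA over SVC against log2 ratio of MWA over SPA for every gene measured on the 3 arrays (grey) and for the 10 imprinted genes (blue circles for expression from the paternal copy, red squares for the maternal copy). Dashed lines mark a 5-fold difference. Nnat, Mest, Plagl1 and Peg3 lie above the upper line, no member lies beyond a vertical line, and 3 of the 4 red squares lie left of 0.

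Set out by the copy from which they are known to be expressed, a split made after the values had been seen, 5 of the 6 genes of the paternal copy passed 2-fold upward from SPA to MWA and none downward, against 15.7% and 18.0% of all genes. Ndn was the exception, and their log2 ratios ran from -0.27 to 6.99. Of the 4 maternally expressed genes, none was 2-fold higher and Grb10 was 2-fold lower in MWA relative to SPA, with log2 ratios from -1.02 to 0.93. Against SVC, 3 of the 4 were at least 2-fold lower in MWA, against 18.0% of all genes, and Cdkn1c was 8.03-fold higher. These are counts over few genes, and the neighbours whose copy is named above did not all follow the split. Klf14, of the maternal copy, was at least 14.8-fold higher in MWA relative to SPA, and Mirg and Rian were 1.18-fold and 1.16-fold higher. Of the paternal copy, Dlk1 was 2.42-fold higher and Dio3 at least 2.52-fold lower. In the maternal group H19 and Cdkn1c lie near each other on chromosome 7, with probes from 149761492 and 150644297 in mm9. The other members of a group do not share a locus.

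The pattern most like that of each member was sought among 52 genes, the other members and the imprinted genes well above background on all arrays, as the smallest distance over the log2 ratios of SPA over SVC and MWA over SPA. For Meg3 the closest gene was Rian (distance 0.18), for Grb10 it was Cobl (0.06) and for Ndn it was Magel2 (0.13), in each case a gene of the same locus. Commd1, of another locus, was nearly as close to Ndn (0.16). Peg3 and Plagl1, on different chromosomes, were closest to each other (0.42). Sgce was closest to Usp29 (0.07), and next to Ppp1r9a of its own locus (0.24). Magel2 on all arrays, and Usp29 in SVC and SPA, lay below a level of -3. The spot SD there was 0.22 to 0.26, so such small gaps in distance do not rank the genes. H19 was closest to Mirg (0.45). The distances of Plagl1 and Grb10 depended on the probe. With the median of probes, the log2 ratios of SPA over SVC and MWA over SPA were -0.44 and 2.13 for Plagl1, against -1.12 and 3.46 for Peg3. For Grb10 they were -0.72 and -0.34, against -0.74 and -0.97 for Cobl at its brightest probe. The other members had no gene near them, with Slc22a3 at 1.56 from Mest, Nap1l5 at 1.44 from Cdkn1c, and Mest at 2.13 from Nnat. Each distance rests on 3 arrays.

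Among the 24 other imprinted genes and genes of the imprinted gene network, 20 were detected on any array. Slc22a3, a transporter of organic cations, was at 0.0351 for SVC, 0.220 for SPA and 3.31 for MWA. It was 6.28-fold higher in SPA relative to SVC and 15.0-fold higher in MWA relative to SPA. Its log2 level in SVC was -4.83, close to the lowest detected level of that array at -4.95, which limits the first of these folds. Slc38a4, an amino acid transporter, was 5.93-fold lower in SPA relative to SVC and not well above background in MWA. Over the list, 3 of 19 genes passed 2-fold upward and 1 downward from SVC to SPA, against 3.89% and 3.24% of all genes. From SPA to MWA 5 of 20 passed it upward and 4 downward, near the 15.7% and 18.0% of all genes. Among the neighbours of the members, 29 of the 36 on the arrays were detected. Of the 28 with a ratio, 0 were at least 2-fold higher and 6 at least 2-fold lower in SPA relative to SVC. Over all genes these shares were 3.89% and 3.24%, and 4 of the 6 lie in the Meg3 cluster. Of the 29, 6 were at least 2-fold higher and 4 at least 2-fold lower in MWA relative to SPA, near the 15.7% and 18.0% of all genes, with a median log2 ratio of 0.05. Snurf was not matched to a probe.

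The fractions differed in markers of cell types, and these values stand beside every result above. The 9 adipocyte markers had a summed scaled signal of 12.5 for SVC, 91.5 for SPA and 3278 for MWA, and all 9 were at least 2-fold higher at each step, the order seen for Nnat, Mest and Cdkn1c. All 9 were well above background in SPA and MWA, and Adipoq and Plin1 were not in SVC. The 6 endothelial markers summed to 2.32, 2.74 and 76.0 in SVC, SPA and MWA, and the 4 erythrocyte markers to 0.313, 0.349 and 663, with Alas2 and Hbb-b1 not well above background in SVC and SPA. Each gene of both lists passed 5-fold upward from SPA to MWA, the step at which Nnat, Mest, Plagl1 and Peg3 were higher.

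The 5 mesothelial markers summed to 19.1 for SVC, 5.63 for SPA and 19.4 for MWA, with 4 of 5 at least 5-fold lower in SPA relative to SVC and at least 5-fold higher in MWA relative to SPA. SPA was the lowest array, as for Peg3, Plagl1 and Dlk1. The 5 smooth muscle and pericyte markers summed to 726, 329 and 54.9, highest in SVC as for H19, Meg3 and Grb10, with 3 of 5 at least 2-fold lower at each step. Acta2 and Tagln made up most of that sum, and the other 2 genes did not follow it, since Rgs5 was 2.99-fold and then 40.2-fold higher and Myh11 was 2.09-fold higher in MWA relative to SPA. The 8 fibroblast and progenitor markers summed to 232, 119 and 268, the 8 macrophage markers to 551, 604 and 199, mostly Lyz2, and the 7 Schwann cell and neuron markers to 12.6, 11.3 and 11.1, with 1 of the last 7 at least 5-fold higher at the step from SPA to MWA. The fibroblast and progenitor list was split between SPA and MWA. Dpt, Cd34 and Col3a1 were 42.7-fold, 7.66-fold and 7.32-fold higher in MWA, and Pdgfra and Pdgfrb were 4.14-fold and 2.68-fold lower. Col1a1, Ly6a and Thy1 were less than 2-fold apart at that step. Within the macrophage list C1qa and C1qb were 9.12-fold and 5.59-fold lower in SPA relative to SVC. They were 11.3-fold and 12.3-fold higher in MWA relative to SPA, with SPA again the lowest array. Mrc1 was also lowest in SPA, 1.38-fold below SVC. Adgre1, Cd68, Csf1r and Lyz2 went the other way. They were highest in SPA and 3.90-fold, 8.58-fold, 1.32-fold and 3.65-fold lower in MWA relative to SPA. Cd14 was lowest in MWA. The part of these cell types in the values of the members was not tested.

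**Figure D4:**
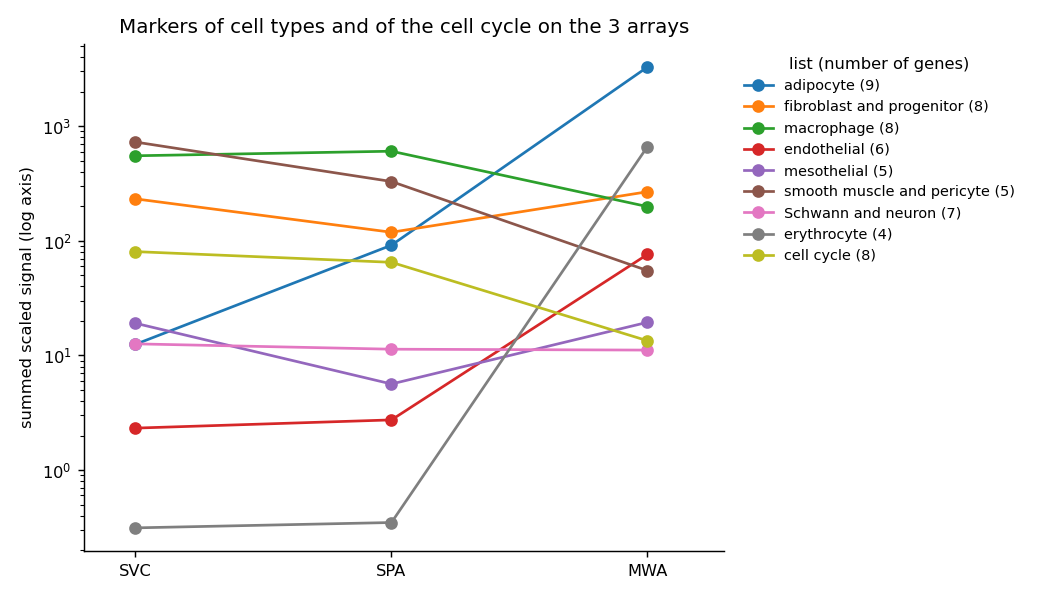
Summed scaled signal of the markers of each cell type and of the cell cycle on the SVC, SPA and MWA arrays, on a log axis, with the number of genes of each list in the key. Adipocyte markers climb from 12.5 to 91.5 to 3278, endothelial and erythrocyte markers climb mainly from SPA to MWA, and mesothelial markers are lowest in SPA.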

How the data were processed

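Each group was 1 array, grouped by the sample records. The authors deposited, for each spot, an intensity from Agilent Feature Extraction 10.7.3.1 (per the submitters' processing notes), as the processed signal after subtraction of background and detrending within the array, with the raw signal, the local background and flags coded 0 or 1 (other). A second set of values deposited by the authors is a ratio, each array's processed signals divided by a single number. The paper names GeneSpring GX, a 5-fold rule and no further setting.

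Control spots and outlier spots were left out. The processed signal was divided by the 75th percentile over all spots that are not controls, at 430 for the SVC array, 439 for SPA and 366 for MWA. Spots of 1 probe were averaged on the log2 scale, and the probe brightest on average over the 3 arrays stood for its gene. A probe was detected where Feature Extraction marked it as well above background, and the lowest such signal of an array set the bounds. Between 58.6% and 61.4% of 59305 spots were well above background and 0 were saturated. No spot of a member had an outlier, background or saturation mark. Depth has no meaning for arrays, and their number limits the precision. Processed signals are not corrected for differences in cell number or RNA yield, and cRNA was made from 50 ng of total RNA, so levels are shares of the RNA of a fraction.

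Members are named as on the arrays. Other names were updated through the accession in the RefSeq table of GRCm38.p6, which holds 32994 of the 56605 probes and 17 of the 25 of the members. The arrays' own annotation gave probe positions in mm9, which were not placed in exons here, and promoter sequences are from RefSeq in GRCm38.p6. The genes named are the members at every probe, genes of their loci, and genes of the lists that were at least 5-fold apart in a comparison. In addition Cdkn1b, Cdkn2b, Sgcd, Insr and Igf1r were named after their values were seen, as the members of small lists past 2-fold. Cdkn1a, Commd1 and single markers of cell types were also named after their values were seen. The members, the lists of neighbours, imprinted genes, relatives and 9 kinds of markers, and the comparisons were chosen with earlier results of these data known. No test could be made with 1 array a group. The code for ratios and calls was checked on simulated arrays. The normexp correction used limma 3.58.1 in R 4.3.3, and all else ran in Python 3.11.15 (numpy 2.4.6, pandas 2.3.3, matplotlib 3.10.9).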

Additional observations from a re-analysis of the deposited data

How the results depend on the processing

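Each count of members and each of the 30 ratios of members was computed under 9 alternatives, in background correction (normexp, offset 50), scaling (quantiles, or another 75th percentile taken from probes detected on every array), source (the deposited values), treatment of dim probes (no bounds, or detection required on both arrays of a comparison), choice of probe (median, or the most extreme) and spots of outlying local background (left out). Of the 54 counts, 1 moved by over 1.5 times: under normexp, 3 rather than 6 members were 2-fold apart in SPA over SVC (Cdkn1c, H19 and Meg3), and Mest, Nnat and Peg3 were not, at log2 ratios of 0.94, 0.81 and -0.41. Of the ratios, 29 of 30 kept their sign under every alternative. The exception was Sgce in SPA over SVC, between -0.19 and 0.03. Peg3 left the 5-fold call of MWA over SPA under normexp (log2 ratio 1.78), and Plagl1 left it with the median of its probes (2.13), which also took it out of MWA over SVC (1.69). Peg3 entered the 5-fold call of MWA over SVC by the median over its probes (2.34) and by its most extreme one (2.62), and Grb10 left the 2-fold list there with the median (-0.99). Grb10 in MWA over SPA left the 2-fold list under normexp, quantile normalization, the other 75th percentile and the median of its probes (highest -0.34), and with the other 75th percentile Cdkn1c (1.00) entered it. The split there, 5 higher and 1 lower, became 5 and 0 with quantiles and 6 and 0 with the other 75th percentile. In all genes, calls at 5-fold in SPA over SVC went from 153 to 45 under normexp and to 446 without a filter, those of MWA over SPA from 2275 to 1221, and those of MWA over SVC from 2284 to 1223. At 2-fold they went from 1628 to 676 under normexp and to 3798 without a filter in SPA over SVC, from 8127 to 5221 under normexp in MWA over SPA, and from 8318 to 5543 in MWA over SVC. The normexp setting adds its offset of 50 to every corrected signal before the log, which by arithmetic shrinks the ratios of dim probes. Its share in these changes was not tested, nor was the cause of the others. Dim probes limit the values of Peg3, of Nnat and Slc22a3 in SVC, and of Igf2. No slide or scan block could be fitted on 1 slide and 1 scan. No paired analysis was possible because each group holds 1 array.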
